A study of Caenorhabditis elegans with 2 samples.

Results

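The genes described here are 10 chaperone genes of the nematode Caenorhabditis elegans, taken as a fixed list out of 19973 nuclear protein-coding genes. They are hsp-1, hsp-3, hsp-4, hsp-6, hsp-60, hsp-90, hsp-110, hsp-16.2, hsp-16.41 and hsp-70. For each gene, every peak was collected whose interval touched the gene or the 1000 bp on either side of it, a stretch called the window here. The list was drawn up with the peaks of some of these genes already known, so all counts and levels at the genes are given as descriptions and carry no test.

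The peaks mark where REC-8 was recovered by chromatin immunoprecipitation and sequencing (ChIP-seq). There was 1 group of 2 biological replicates, made from whole hermaphrodites of strain YL581, which stably carries REC-8 with a GFP-FLAG tag at its C terminus. Worms were young adults, 50 h past synchronization as starved L1 larvae, and the labels name no heat or other stress treatment of the adults. Chromatin was sonicated and precipitated with an antibody against GFP, although the labels also give rec-8 itself as the antibody. No worms without the tag are analysed here, and whole worms mix germ line and body cells.

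REC-8 is a kleisin, the subunit that closes the cohesin ring, and is known for its role in meiosis, where cohesin holds sister chromatids together. Heat shock proteins are chaperones that bind unfolded proteins and help them fold. Some are made at all times, while others are made mainly when heat or another stress unfolds proteins. In many eukaryotes, heat induction runs through the factor HSF-1, which binds heat shock elements made of alternating GAA and TTC units. Stress in the endoplasmic reticulum and in mitochondria calls on separate unfolded protein responses.

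The members were divided by textbook roles. Counted as constitutive were hsp-1 (the cytosolic HSC70), hsp-3 (a BiP of the endoplasmic reticulum), hsp-6 (the mitochondrial HSP70), hsp-60 (the mitochondrial chaperonin), hsp-90 (the cytosolic HSP90) and hsp-110 (an exchange factor for HSP70). Counted as stress-induced were hsp-4 (the second BiP, induced by unfolded proteins in the endoplasmic reticulum), the small heat shock proteins hsp-16.2 and hsp-16.41, and hsp-70 (a heat-inducible HSP70). The constitutive genes hsp-6 and hsp-60 are also induced by mitochondrial stress.

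Each list gives a signal per peak, set by the authors' peak caller and not scaled between lists, so it is compared within a list, by its rank with 1 as the strongest. The pooled list of both replicates held 10019 peaks, replicate 1 alone 17532 and replicate 2 alone 14069. By their description these 3 lists hold background along with peaks, so a place in one of them is weak evidence of binding. The thresholded list kept 739 of the pooled peaks, by the authors' irreproducible discovery rate, a measure of how well peak ranks repeat between replicates. Its weakest peak had a signal of 92.8, the same as the weakest of the 739 strongest pooled peaks. The list thus coincides with the strongest pooled peaks, and a thresholded peak is simply one of high pooled signal. Read depth is unknown, so a missing peak is not an absence of REC-8.

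All 10 members had a pooled peak in their window, as did 43.4% of protein-coding genes. In replicate 2 all 10 had one, against 52.9% of genes. In replicate 1, 8 had one, against 60.7% of genes, and the 2 without were hsp-16.2 and hsp-16.41. A peak in both replicates was found at 8 members and at 40.9% of genes. A thresholded peak was found at 4 members (hsp-6, hsp-60, hsp-90 and hsp-110) and at 5.08% of genes.

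The 4 members with a thresholded peak were all constitutive. Among the 6 constitutive genes, the highest pooled signal of each gene ran from 54.6 at hsp-3 to 158 at hsp-60, with a median of 113. Among the 4 stress-induced genes it ran from 43.1 at both hsp-16 genes to 50.9 at hsp-70, with a median of 43.9. The classes did not overlap in the pooled list. In replicate 1 the ranges were 33.3 to 82.0 and 26.4 to 29.5, and again did not overlap, with the 2 hsp-16 genes lacking a peak. In replicate 2 they were 24.6 to 75.2 and 24.3 to 31.3, and overlapped because hsp-3 was low. If hsp-4 is moved to the constitutive class, the pooled ranges overlap as well, since its highest signal of 44.8 lies between those of the hsp-16 genes and hsp-70. They also overlap if hsp-6 (119) or hsp-60 (158), which mitochondrial stress induces, is moved to the stress-induced class. The classes were chosen with earlier results of these data known, so the lack of overlap depends on how they were drawn.

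**Figure D1:**
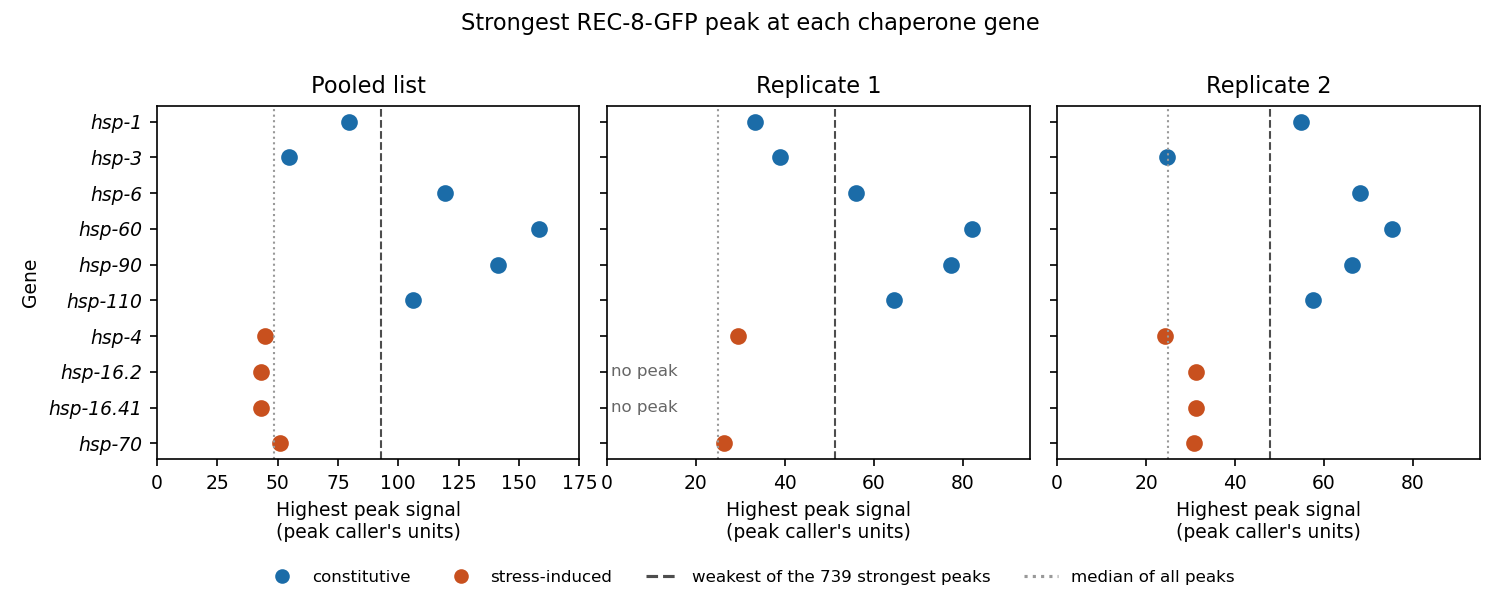
Highest peak signal in the window of each gene (x axis, peak caller's units, 1 panel per list), with constitutive genes in blue and stress-induced genes in orange. The dashed line marks the weakest of the 739 strongest peaks of the list and the dotted line the median of all its peaks: hsp-6, hsp-60, hsp-90 and hsp-110 lie to the right of the dashed line in every panel, hsp-1 only in replicate 2, and no stress-induced gene does.

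The strongest peak was at hsp-60, in the stretch between hsp-60 and a gene read in the opposite direction. The peak (III, 1618892 to 1619321) had a signal of 158 in the pooled list (rank 194), 82.0 in replicate 1 (rank 193) and 75.2 in replicate 2 (rank 242). Its pooled summit lay at 1619107, with the summits of the single replicates 12 bp and 54 bp away. That is 635 bp upstream of the start of hsp-60 (WBGene00002025, III, 1619742 to 1625803) and 178 bp upstream of the start of Y22D7AL.10, which RefSeq annotates as the 10 kDa mitochondrial heat shock protein, the partner of the chaperonin. The summit therefore sat nearer to the start of the partner gene than to that of hsp-60.

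At hsp-90 the strongest peak lay inside the annotated gene but upstream of the start of its shorter transcript. The peak (V, 14685561 to 14685990) had a signal of 141 in the pooled list (rank 271), 77.4 in replicate 1 (rank 231) and 59.1 in replicate 2 (rank 461). The gene (WBGene00000915, V, 14684918 to 14688545) has an upstream first exon without coding sequence, and the summit at 14685776 fell in the intron after it. It was 384 bp upstream of the second transcript start and 291 bp upstream of the start of C47E8.4, which lies on the opposite strand and is annotated as a FAM50 homolog. Replicate summits were 3 bp and 22 bp from the pooled summit.

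At hsp-110 the strongest peak lay in the promoter region it shares with rpn-3, a subunit gene of the proteasome lid. The peak (III, 8446866 to 8447295) had a pooled signal of 106 (rank 543) and was the weakest of the thresholded peaks at members. Its summit lay 172 bp upstream of the start of hsp-110 (WBGene00016250, III, 8443910 to 8446909) and 272 bp upstream of that of rpn-3, within the ncRNA gene C30C11.14. Replicate 1 had a peak 8 bp away with a signal of 64.6 (rank 393). In replicate 2 this place was covered by a pair of overlapping peaks, the nearer one with a signal of 34.4 (rank 2097) and the stronger one with 57.6 (rank 493), whose summit at 8446893 fell just inside hsp-110.

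The sequences around these 3 summits and the stretch between hsp-16.2 and hsp-16.41 are shown because they hold heat shock element letters beside a peak. Capitals mark matches to GAANNTTC or TTCNNGAA, each of which reads the same on both strands. A run of 13 capitals is a pair of such matches sharing 3 letters, that is, a GAA or TTC unit in alternation 3 times. The sequences are from the RefSeq genome of WBcel235 (ce11), on the strand of hsp-60, hsp-90, hsp-110 and hsp-16.41 in that order.
hsp-60 (chrIII:1619007-1619206, plus strand): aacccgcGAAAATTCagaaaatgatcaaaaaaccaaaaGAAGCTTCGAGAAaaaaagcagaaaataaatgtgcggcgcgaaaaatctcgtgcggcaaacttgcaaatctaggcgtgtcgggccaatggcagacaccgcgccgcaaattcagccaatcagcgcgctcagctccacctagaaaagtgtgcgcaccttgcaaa
hsp-90 (chrV:14685676-14685875, plus strand): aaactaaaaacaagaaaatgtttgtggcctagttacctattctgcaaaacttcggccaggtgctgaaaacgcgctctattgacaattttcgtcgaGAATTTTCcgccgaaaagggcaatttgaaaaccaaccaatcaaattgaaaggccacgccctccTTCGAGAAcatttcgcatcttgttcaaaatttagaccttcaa
hsp-110 (chrIII:8446981-8447180, minus strand): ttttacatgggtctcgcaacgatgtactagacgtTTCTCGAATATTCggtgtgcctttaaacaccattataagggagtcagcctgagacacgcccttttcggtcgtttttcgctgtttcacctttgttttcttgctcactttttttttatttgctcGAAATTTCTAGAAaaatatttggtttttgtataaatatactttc
hsp-16.2 to hsp-16.41 (chrV:1804958-1805177, plus strand): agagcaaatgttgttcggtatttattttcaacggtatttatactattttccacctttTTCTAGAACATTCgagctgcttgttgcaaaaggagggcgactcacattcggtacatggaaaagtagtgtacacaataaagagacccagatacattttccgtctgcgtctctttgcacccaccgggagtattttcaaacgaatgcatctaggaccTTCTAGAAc

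Of the 23 different pooled peaks at members, 3 held an overlapping pair of these letters in the 200 bp around the summit, at hsp-60, at hsp-110 and between the hsp-16 genes. Of all 10013 nuclear pooled peaks 1.36% did, and of the 733 nuclear thresholded peaks 1.91% did. The members were chosen as heat shock genes, whose upstream stretches often hold such pairs. These shares thus do not show that peaks favour the letters. At hsp-110 there were 2 such pairs, one on each side of the summit. At hsp-90 a single GAANNTTC was centred 1 bp from the summit, with a TTCNNGAA further along. Single matches are common, and 1 or more of either motif stood around 23.4% of nuclear pooled summits and 18.4% of nuclear thresholded ones, and in 48.3% of the 500 bp stretches upstream of protein-coding genes. The nearest match centre was 53 bp from the summit at hsp-60, 57 bp at hsp-110 and 18 bp between the hsp-16 genes.

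In the list as a whole, peaks with and without the letters had similar signals. The 136 nuclear pooled peaks with an overlapping pair had a median signal of 48.8, and the 9877 others 48.5. Among the 500 bp upstream of annotated gene starts, an overlapping pair stood in front of 7 of the 10 members and of 3.25% of protein-coding genes. The pairs of hsp-1, hsp-70 and hsp-90 lay outside every pooled peak, while those of hsp-6, hsp-110 and the hsp-16 genes lay within one. Of the 650 genes with such a pair, 45.7% had a pooled peak in their window and 6.46% a thresholded one, close to the 43.4% and 5.08% of all genes. The upstream stretches of hsp-3 and hsp-60 held neither motif, and that of hsp-4 held both without overlap. The pair at hsp-60 lies further upstream, beside the peak. The upstream stretch of hsp-16.2 reaches into hsp-16.41, and their windows share the same central pair.

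The pooled peak between the hsp-16 genes was in the weaker part of its list. It ran from 1804827 to 1805256 on V with its summit at 1805042, 85 bp upstream of hsp-16.2 (WBGene00002016, 1804334 to 1804957) and 136 bp upstream of hsp-16.41 (WBGene00002018, 1805178 to 1805875). Its signal was 43.1 in the pooled list (rank 7695) and 31.3 in replicate 2 (rank 2970), with the same summit. Replicate 1 had no peak in either window. The genes are read away from each other and share this 1 peak, so they are not independent, although the class values count each of them.

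The strong peak at hsp-6 lay at the other end of the gene, past its 3′ end. The peak (V, 4823898 to 4824327) had a signal of 119 in the pooled list (rank 418), 56.1 in replicate 1 (rank 577) and 68.2 in replicate 2 (rank 319). Its summit was 11 bp past the annotated end of hsp-6 (WBGene00002010, V, 4824124 to 4826760, minus strand) and 690 bp upstream of the start of adss-1, the adenylosuccinate synthetase gene that follows on the same strand. A weaker pooled peak beside it, with a signal of 68.6 (rank 1555), had its summit in the 3′ UTR. Upstream of hsp-6, in front of which a pair of heat shock letters stands, the pooled signal was 41.7 (rank 8585). The 200 bp around the strong summit held no such letters and had a GC content of 26.5%, against a median of 43.5% for nuclear thresholded peaks. The intergenic part of that stretch is shown because it carries the strongest hsp-6 peak, on the strand of hsp-6, without capitals since no motif was found.
hsp-6 3′ side (chrV:4824013-4824123, minus strand): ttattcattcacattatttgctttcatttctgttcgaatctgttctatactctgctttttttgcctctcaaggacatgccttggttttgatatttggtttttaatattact

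A second thresholded peak in the window of hsp-90 lay 926 bp past the end of that gene, inside gasr-8. It ran from 14689256 to 14689685 on V and had a signal of 125 in the pooled list (rank 369), 59.0 in replicate 1 (rank 516) and 66.3 in replicate 2 (rank 343). In replicate 2 this was the strongest peak of the hsp-90 window. Its summit was 61 bp from the tRNA gene WBGene00014287, and gasr-8 was the nearest protein-coding start. The tRNA gene is shown with capitals at GGTTCGA, letters found in the internal box B that RNA polymerase III factors recognise. Of the 2 runs of capitals, only the first is in the place of box B, since the second runs into the 3′ end of the gene, which pairs with its 5′ end. These letters, searched on both strands, stood in the 200 bp around 30.0% of nuclear thresholded summits and 5.37% of nuclear pooled summits. The 200 bp around this summit did not reach them, while those around the hsp-90 summit at 14688463 and the summit past the 3′ end of hsp-70 held them.
tRNA gene beside hsp-90 (chrV:14689532-14689615, plus strand): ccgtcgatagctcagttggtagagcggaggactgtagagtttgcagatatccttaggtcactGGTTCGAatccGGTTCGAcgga

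Along hsp-90 the pooled list held 5 peaks, the most of any member. Between the thresholded pair, a peak in a coding exon had a signal of 73.5 (rank 1302), with 35.1 in replicate 1 and 34.9 in replicate 2. The others, at the 3′ end, ranked 6614 and 9156 and lay 153 bp and 60 bp from the start of C47E8.11.

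**Figure D2:**
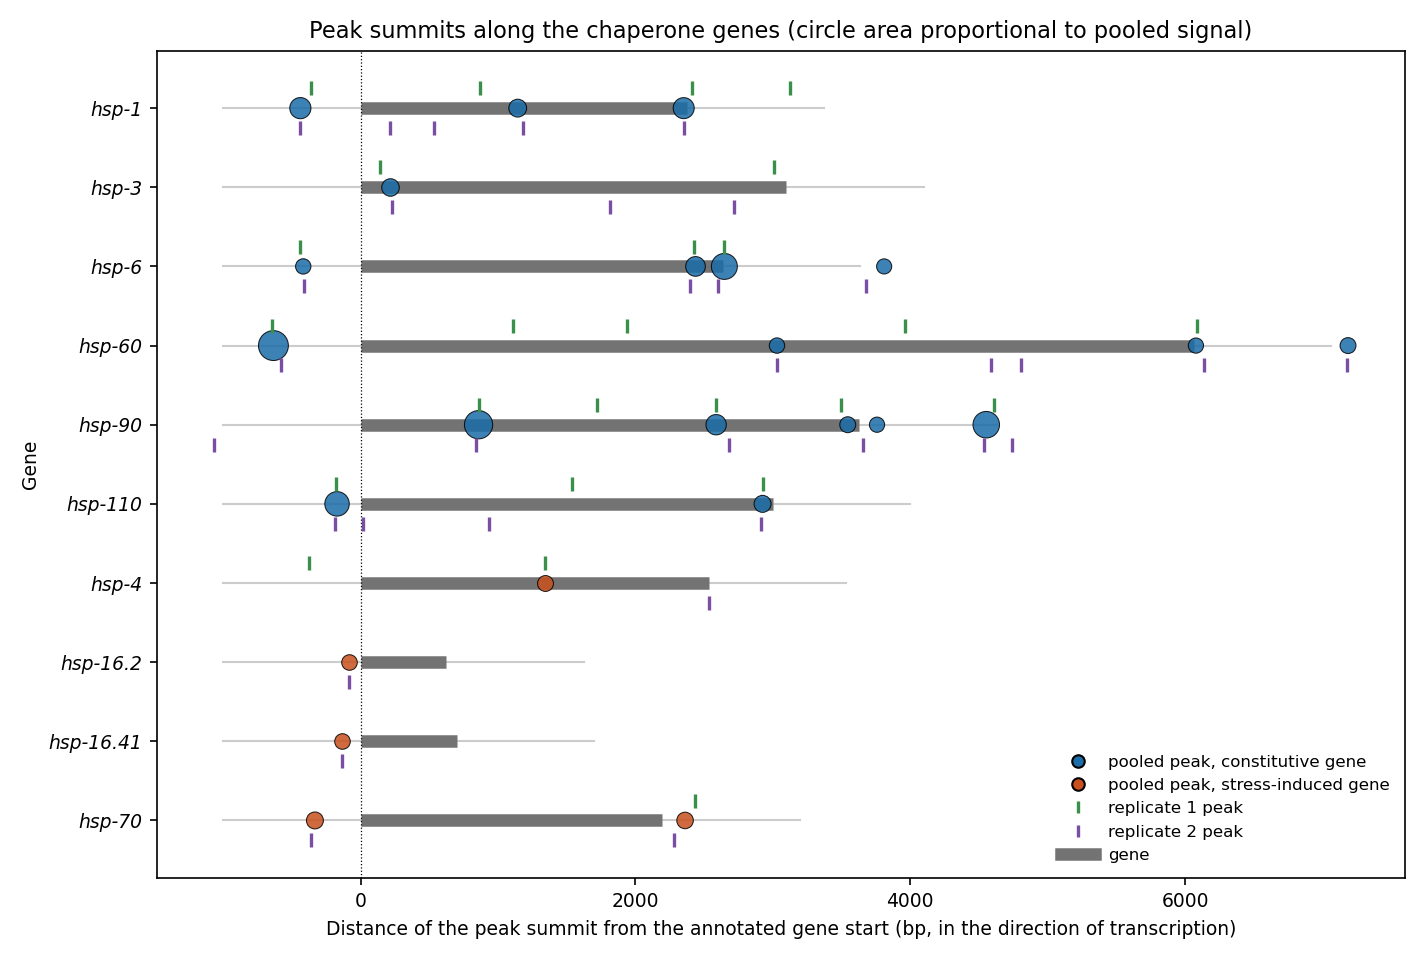
Peak summits by distance from the annotated gene start (x axis, bp in the direction of transcription), 1 row per gene, with the gene as a grey bar and the window as a thin line. Circles are pooled peaks with area proportional to signal, and ticks above and below are peaks of replicate 1 and replicate 2: the large circles lie before the start at hsp-60 and hsp-110, inside and past the gene at hsp-90, and at the 3′ end of hsp-6.

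The constitutive genes hsp-1 and hsp-3 stayed below the threshold. At hsp-1 (WBGene00002005, IV, 17278959 to 17281330) there were 3 pooled peaks. The highest, 439 bp upstream of the start, had a signal of 79.4 in the pooled list (rank 1058), 33.3 in replicate 1 (rank 2910) and 45.9 in replicate 2 (rank 847). The second, in the 3′ UTR, had 78.2 (rank 1105), with 29.6 in replicate 1 (rank 4718) and 54.8 in replicate 2 (rank 550). The replicates thus differed in where hsp-1 stood, and its 3′ peak was among the 739 strongest of replicate 2 alone. The third, with 56.4, had its summit inside the intronic snoRNA gene F26D10.24 and a partner in replicate 2 only.

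At hsp-3 (WBGene00002007, X, 6089028 to 6092124) the single pooled peak had a signal of 54.6 (rank 3249) and its summit in the 5′ UTR of the longest transcript, 129 bp upstream of another transcript start. It had 39.0 in replicate 1 (rank 1636) and 20.3 in replicate 2 (rank 13464), near the weak end of that list. The other BiP gene, hsp-4 (WBGene00002008, II, 7350112 to 7352645), also had 1 pooled peak, in a coding exon, with 44.8 (rank 6751). It had 29.5 in replicate 1 (rank 4756) and no partner in replicate 2, whose single peak at hsp-4 lay at the 3′ end with 24.3 (rank 7645). Neither BiP gene had a peak matched at similar rank in both replicates.

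The heat-inducible hsp-70 (WBGene00002026, I, 9320325 to 9322519) lies within uggt-2, a gene for a glucosyltransferase of the endoplasmic reticulum that is read in the opposite direction. Its upstream peak, 333 bp before the start, had a pooled signal of 50.9 (rank 4204), 30.9 in replicate 2 (rank 3115) and no partner in replicate 1. The peak past its 3′ end had 48.5 (rank 5027), with 26.4 in replicate 1 (rank 7225) and 24.1 in replicate 2 (rank 7901). That summit lay 20 bp from the tRNA gene WBGene00012377 and close to a second one, WBGene00013918. Of the 395 stretches of 36 bp in the 3′ peak, 100 (25.3%) occur more than once in the genome, while the upstream peak held 0 such stretches.

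The thresholded peaks of the members stood in both replicates. The thresholded list coincides with the 739 strongest pooled peaks. The pooled list was derived from both replicates, so a place in both largely followed from that. Of the 23 pooled peaks at members, 15 were matched in both replicates, 7 in replicate 2 alone and 1 in replicate 1 alone, where a match covered at least 50% of the shorter peak. The pooled hsp-90 peaks with summits at 14688463 and 14688676 were matched to the same replicate 2 peak (rank 1398), which is counted for each. Of all nuclear pooled peaks, 49.4% were matched in both. One of the 739 strongest peaks of replicate 1 was found at 4 members (5.25% of genes) and of replicate 2 at 5 members (4.90% of genes), the fifth being hsp-1. The 4 members hsp-6, hsp-60, hsp-90 and hsp-110 had one in both replicates, as did 3.38% of genes.

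**Figure D3:**
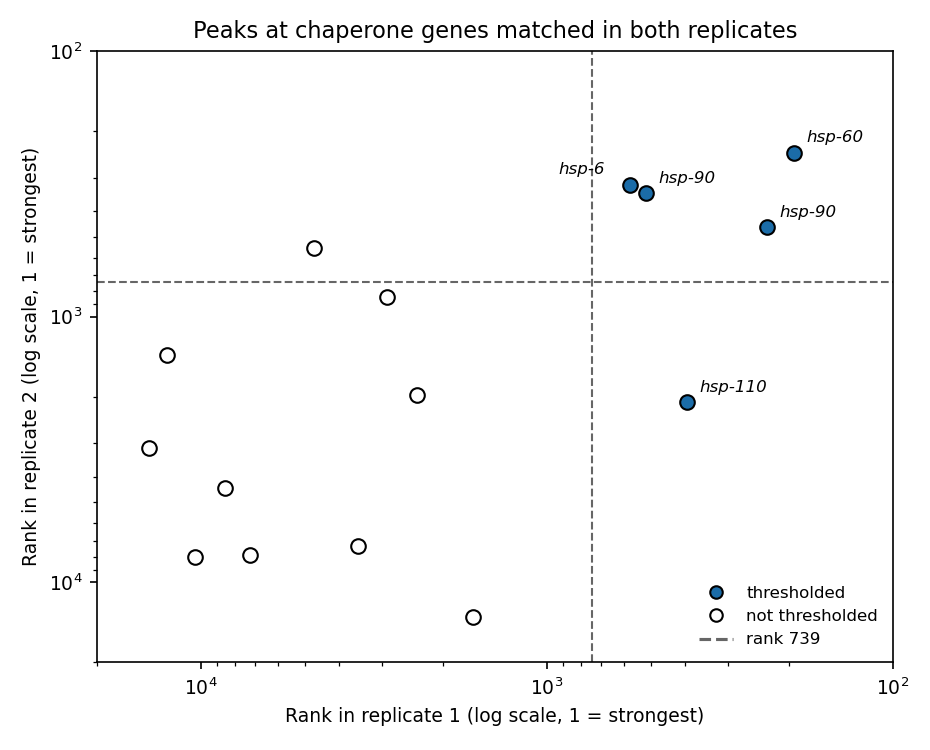
Rank in replicate 1 against rank in replicate 2 (both on log scales, with 1 as the strongest towards the upper right) of the 15 peaks at members matched in both replicates by the nearest summit. Filled points are the 5 thresholded peaks: 4 lie within rank 739 in both replicates, and the hsp-110 point lies at rank 393 in replicate 1 and rank 2097 in replicate 2, where a stronger peak overlaps it.

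Among all protein-coding genes, the members were ranked by the highest signal in their window. In the pooled list the share of genes with a lower value was 98.7% for hsp-60, 98.3% for hsp-90, 97.2% for hsp-6, 96.3% for hsp-110, 92.8% for hsp-1 and 80.6% for hsp-3. It was 76.3% for hsp-70, 66.9% for hsp-4 and 63.8% for both hsp-16 genes. The class medians were 96.8% and 65.3%. For the constitutive genes the median was 96.6% in replicate 1 and 97.3% in replicate 2. For the stress-induced genes it was 32.6% and 82.3%, with both hsp-16 genes at 0 in replicate 1, where they had no peak. With the hsp-16 pair counted once, the stress-induced median was 66.9% in the pooled list, 65.2% in replicate 1 and 81.9% in replicate 2, so the low value in replicate 1 came from counting the shared place for each gene.

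**Figure D4:**
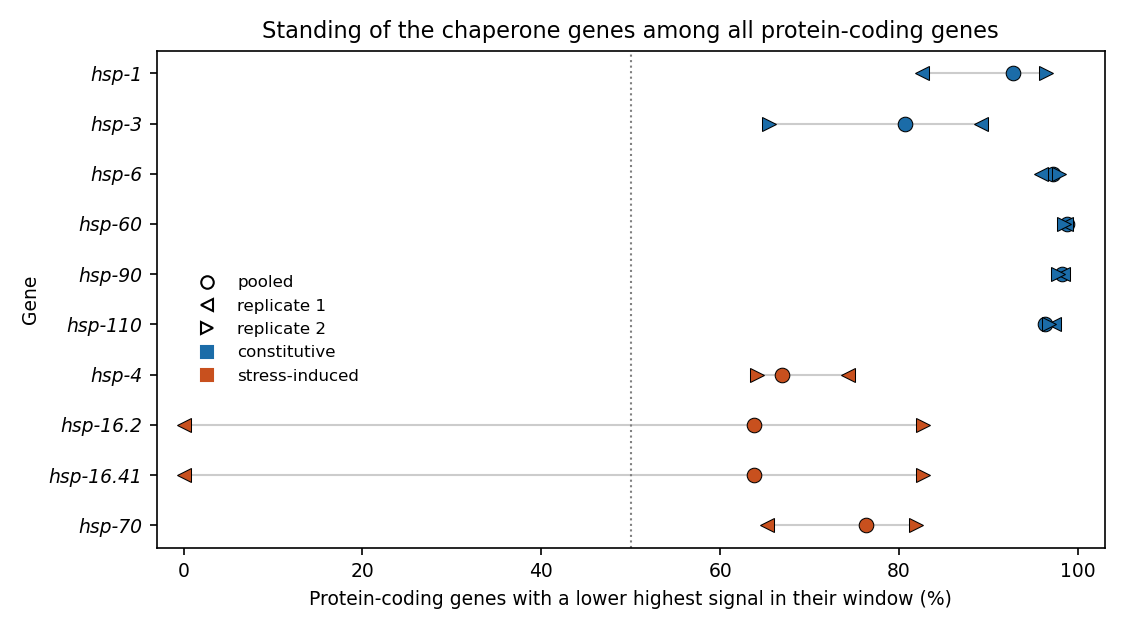
Share of protein-coding genes whose highest signal in the window is lower than that of the member (x axis, %), in the pooled list and in each replicate, for constitutive genes in blue and stress-induced genes in orange. The dotted line marks 50%, which any gene with a pooled peak exceeds in the pooled list. The genes hsp-6, hsp-60, hsp-90 and hsp-110 stay above 95% in each list, while the hsp-16 genes run from 0% in replicate 1 to 82.7% in replicate 2.

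The classes differ in length and in their neighbours. Windows were 4372 to 8062 bp for the constitutive genes and 2624 to 4534 bp for the stress-induced ones, and a longer window can catch more peaks. Set against genes whose window is within 20% of their own in length, the class medians were 97.0% and 73.2%. Pooled peaks numbered 0.579 per kb of window in the constitutive class, 0.356 in the stress-induced class and 0.133 over all protein-coding genes.

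Most peaks at the members also lay in the window of another gene. With the peak between the hsp-16 genes counted for each, 20 of 24 pooled peaks did, and each of the 5 thresholded ones. Of all nuclear pooled peaks in at least 1 window, 47.0% were in more than 1. The nearest protein-coding start was that of the member itself for 10 of the 24 peaks, and for 1 of the 5 thresholded peaks, that of hsp-110. For nearest starts and for sharing of thresholded peaks, the matching shares of all peaks are not given here. These counts are thus not shown to be particular to the members. When only peaks nearest to a gene's own start were kept, the class medians came to 81.0% and 76.9%, and hsp-6, hsp-60 and hsp-90 lost their thresholded peaks. This filter was applied to all genes. The best peaks of hsp-16.2, hsp-4 and hsp-70 stayed the same, so their higher shares reflect peaks lost at other genes. These shares are thus not on the same footing as those without the filter. With no peak left, hsp-6, hsp-90 and hsp-16.41 stood at 0%. The value for hsp-60 was 73.8%, below hsp-16.2 (75.6%), hsp-4 (78.1%) and hsp-70 (85.1%). Those of hsp-3 (88.2%), hsp-1 (96.0%) and hsp-110 (97.9%) were higher, so the classes overlapped. By distance the strongest peaks of hsp-60, hsp-90 and hsp-6 fell to Y22D7AL.10, C47E8.4 and adss-1, and which gene each peak relates to was not tested.

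Other chaperone and stress response genes, were looked up in lists chosen by role. Of 70 loci in 7 lists, 48 had a pooled peak and 6 a thresholded one, beside 43.4% and 5.08% of all protein-coding genes. Co-chaperones of HSP70 and HSP90 held 3 of these among 18 genes. They were unc-45, a myosin chaperone (signal 267, rank 36), ahsa-1, an activator of the HSP90 ATPase (178, rank 132), and dnj-12, a J-domain protein (157, rank 201). The peaks at unc-45 and dnj-12 lay within 250 bp of a snoRNA gene, and all 3 lay nearest to the start of a neighbouring gene. In the CCT chaperonin and prefoldin list 2 of 14 had one, cct-8 (112) and cct-7 (111). In the mitochondrial unfolded protein response list 1 of 7 did, ubl-5 (98.6), and the next highest was spg-7 (67.0). The peaks at cct-8 and spg-7 lay nearest to the start of a neighbouring gene, and those at cct-7 and ubl-5 to their own.

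The remaining lists held no thresholded peak. Of 12 small heat shock protein loci, 5 had a pooled peak, the highest at sip-1 (82.9) and at hsp-12.3 (74.2), the latter within 250 bp of a snRNA gene. The 4 loci of hsp-16.1 and hsp-16.48, paired like hsp-16.2 and hsp-16.41, had no peak in any list. They are copies that the annotation names in pairs, and how reads from repeated sequence were treated is not given in the sources used here. In the endoplasmic reticulum list 8 of 10 had a pooled peak, the highest at crt-1, calreticulin (84.4), and at pdi-6, a disulfide isomerase (59.0). Among further HSP70 and HSP90 relatives 3 of 5 did, with enpl-1, the HSP90 of the endoplasmic reticulum (83.4), and stc-1 (67.7) highest. Of the 4 genes matched in the list of heat shock transcription each had one, with hsb-1, an inhibitor of HSF-1, at 70.6 and hsf-1 itself at 53.5. The named peaks at hsb-1, hsf-1, sip-1, hsp-12.3 and stc-1 lay nearest to the start of a neighbouring gene. Those at crt-1, pdi-6 and enpl-1 lay nearest to their own.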

How the data were processed

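ChIP-seq peak lists of 2 biological replicates were used, with replicate numbers and groups as the labels give them. The deposited lists hold a signal value, a −log10 q value and a summit per peak, per the file layout. The file listings deposited with the samples name build ce11 and a control, and show that the authors called peaks for each replicate and for both pooled. No label or header names the aligner or the peak caller. Signal values were not scaled between lists, and −log10 q values and the ce10 lists were not used.

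Windows were overlapped with Ensembl release 115 gene models of WBcel235, which is ce11, in Python 3.11.15 with pandas 2.3.3 and numpy 2.4.6. All nuclear peaks lay within the reference chromosomes. Ranks include mitochondrial peaks. Promoter letters were sought in 500 bp upstream of the gene start, and letters at peaks in 200 bp around the summit. The overlap step was tested on simulated data. The members, classes and lists were chosen with earlier results of these data known. Named beside the members were genes of the other lists with a thresholded peak, up to 2 with the highest pooled signal in each, and neighbours sharing a peak. Of 71 names in those lists, hsf-2, a pseudogene in RefSeq, was not matched. Where the annotation has 1 symbol for a pair of hsp-16 copies, both loci were counted. No p-values were computed.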

Additional observations from a re-analysis of the deposited data

How the results depend on the processing

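With other windows, overlap rules, single replicates and yardsticks, 26 of 40 alternative values stayed within the spread between replicates or, for counts, within 1.5 times. The 13 for the stress-induced class are left out of this count, because its replicates differed so much (SD 35.1 percentage points) that hardly any value could fall outside. For the remaining values the spread came from the same single-replicate values that are among the alternatives. The rule for counts also takes a fall from 10 members with a pooled peak to 7 as unchanged. The count is thus a loose measure of stability. The count of members with a thresholded peak went from 4 to 2 among the upper 50% of that list and to 1 with only peaks nearest to the gene's own start. It was 4 and 5 in the single replicates. The median best rank of the members with a peak, 21.5% of the pooled list, was 41.3% with no flank. It was 42.0% over the 7 members left with only peaks nearest to the own start, and 72.1% with the other 3 ranked last. With 1 replicate left out it ran from 6.31% (without replicate 2, over 8 members) to 12.5% (without replicate 1, over 10), and from 12.51% to 12.96% with members lacking a peak ranked last. Leaving out a replicate meant using the other replicate's own list, here and below. Those lists are longer (17532 and 14069 peaks against 10019 pooled), so their rank percents are not directly comparable with 21.5%. For the constitutive class the median share of genes with a lower signal, 96.8%, was 97.3% with 500 bp, 95.9% with 2000 bp and 81.0% with only peaks nearest to the own start, and 96.6% to 97.3% with 1 replicate left out. For the stress-induced class, 65.3%, it ran from 32.6% without replicate 2 to 82.3% without replicate 1, or from 65.2% to 81.9% with the hsp-16 pair counted once. Counting that pair once, ranking members without a peak last, and the thresholded count with peaks nearest to the own start were chosen after seeing the data. The causes were not tested beyond what each construction fixes. No paired analysis was possible because there was 1 group. Depth is unknown and limits what a missing peak shows.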
